A study of Mus musculus with 309 samples.

Results

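Mammary tumours of the mouse model 2225 that had been given trametinib were compared with tumours of the same model given erlotinib. The groups were taken from the tumour titles, which gave 3 tumours with trametinib and 3 with erlotinib, 6 of the 309 tumours profiled. The series covers 24 mouse models of triple-negative breast cancer, untreated or treated with kinase inhibitors, chemotherapy or checkpoint antibodies. No untreated tumour of 2225 was analysed here; 3 tumours of 2225 given carboplatin plus paclitaxel are used for their levels only. The labels give mammary tumour as the tissue of all 9 tumours and a median survival of 42 days with trametinib, 24 days with erlotinib and 20 days with carboplatin plus paclitaxel. They give no strain, age, genotype, dose, duration or time of collection, and do not say whether tumours were transplanted. The series design calls the tumours individual. Whether each came from a separate animal is not stated, so p-values measure the spread between these tumours.

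Erlotinib blocks the kinase of EGFR, a receptor at the cell surface that signals through RAS, RAF, MEK and ERK, among other routes. Trametinib blocks MEK, which stands below all receptors that feed this chain. ERK induces its own brakes, the Dusp phosphatases and Sprouty proteins, together with transcription factors of the Ets, Egr and AP-1 families, so their transcripts are commonly read as output of the chain. Low oxygen is sensed by a separate system: hypoxia-inducible factors (HIF) are hydroxylated by the Egln enzymes when oxygen is present and destroyed, and when it is scarce they switch on glucose uptake, glycolysis and blood vessel growth.

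The 6 libraries held between 12074712 and 32044321 estimated counts, and trametinib tumour 1 stood apart from the rest. It had the smallest total and the largest share of counts in rRNA-annotated genes, 15.5% against a median of 0.279%, among all trametinib and erlotinib tumours of 22 models. Its share of mitochondrial transcripts was 6.13%, against 2.45% to 3.16% in the other 5 tumours. The nuclear RNA Malat1 was at 15100 CPM (counts per 1000000) in it, and at 1070 and 72.7 CPM in trametinib tumours 2 and 3. On the first principal component, which held 45.7% of the variance, it lay at -94 and the other 5 at 1.84 to 34.4. On the second, which held 23.5%, erlotinib tumour 3 lay at 61.4 and the other 5 at -27.9 to 8.03. The main results are given with and without trametinib tumour 1. All 6 tumours were epithelial by their markers: Epcam, an adhesion protein of epithelial cells, ranged from 484 to 677 CPM and the basal keratin Krt14 from 335 to 473 CPM. Cd8a, Cd3d and Cd3e, which mark T cells, reached at most 12, 7 and 10 estimated counts in any tumour, under the filter on low counts.

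Before single genes, the direction of the differences in 2225 is set beside that of other models. Trametinib was compared with erlotinib in the same way in 21 other models, which share no tumour with 2225. There, 4853 of 16846 genes (28.8%) differed between the drugs by edgeR's quasi-likelihood test at an adjusted p under 0.05. Of the 4505 of these genes tested in 2225, 1315 (29.2%) had the same sign in 2225, and 28.2% did without trametinib tumour 1. Over all 15431 genes tested in both, the share with the same sign was 38.9%. Each model was also set against the mean of the other 21, over genes whose mean difference was at least 0.4 on the log2 scale and whose mean log2 CPM in 2225 was at least 1. The share of genes with the same sign was 28.7% in 2225, the lowest of 22 models, followed by 42.2% in MMTV-Neu and 46.2% in KPB1-B. The median of the other 21 was 70.7%, and the highest share was 91.5%, in T11. Genes are not independent of each other, and these shares are descriptions. The tumours of 2225 are named here by their labels, and whether each label is right was not tested.

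**Figure D1:**
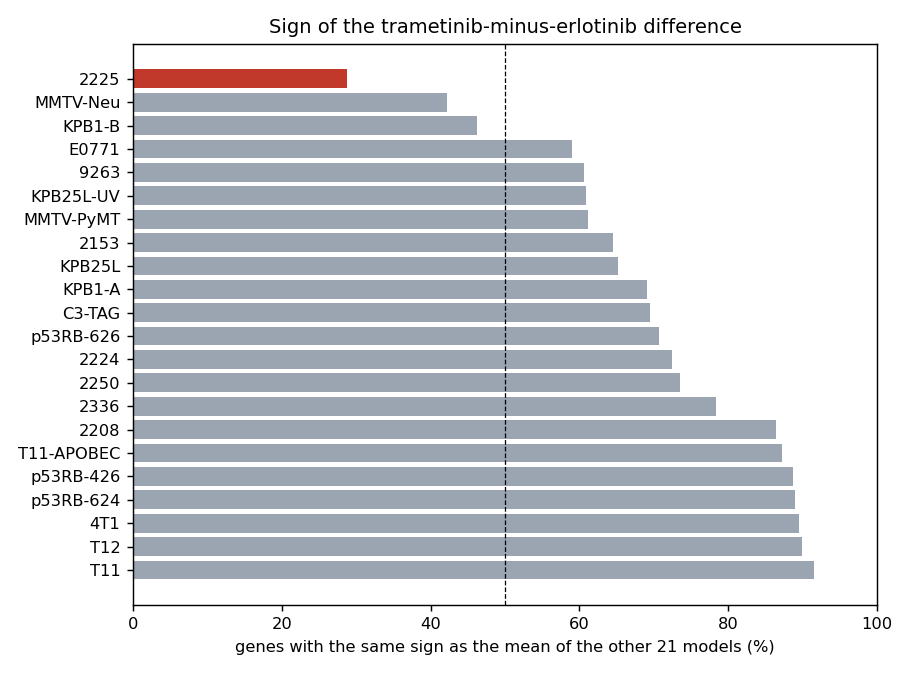
Share of genes (x axis, %) whose trametinib minus erlotinib difference had the same sign in a model (y axis, 22 models) as in the mean of the other 21 models. The dashed line marks 50%; 2225 (red) is the lowest at 28.7%.

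Within 2225, 3 genes fell with trametinib and none rose (3 of 16044 genes tested, 0.0187%; adjusted p under 0.05, edgeR). At an unadjusted p under 0.05, 1072 genes were higher and 1068 lower, and DESeq2 called 116 higher and 224 lower. Aire (chromosome 10, 78030022 to 78043610, mm10), which in the thymus drives expression of tissue antigens, stood at 19.4, 21.5 and 25.7 CPM with trametinib. With erlotinib it stood at 168, 297 and 418 CPM. The arms did not overlap, the log2 fold change was -3.72 (SE 0.345), and the adjusted p was 0.0391. Nxph4, which encodes a neurexophilin, a secreted ligand of neurexins, was at 0.728, 0.605 and 0.737 CPM with trametinib and 6.15, 12.0 and 10.8 CPM with erlotinib. Its log2 fold change was -3.80 (SE 0.366, adjusted p = 0.0391). The third gene, 2610528A11Rik, had 2, 4 and 2 estimated counts with trametinib and 228, 680 and 310 with erlotinib (adjusted p = 0.0391). Its fitted log2 fold change of -6.57 depends on the few counts of 1 arm. None of these 3 genes was called without trametinib tumour 1 (adjusted p = 0.174 for each), and each was called without erlotinib tumour 1 (adjusted p = 0.00805), where 23 genes fell. Without any 1 of the other 4 tumours none of the 3 was called (adjusted p 0.245 to 0.483); 1 other gene, which rose, was called without trametinib tumour 3. Their log2 fold changes with a tumour left out ranged from -4.01 to -3.38 for Aire and from -4.04 to -3.61 for Nxph4.

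Genes of glycolysis and the response to low oxygen were lower with trametinib in sign throughout their list. All 24 genes of that list had a negative log2 fold change, with a median of -1.50, against 0.014 over all genes tested; the median without trametinib tumour 1 was also -1.50. In 23 of the 24, every trametinib tumour lay below every erlotinib tumour, whereas 11.5% of all genes tested did so. Pkm, the last kinase of glycolysis, was the exception. None of the 24 passed the adjusted threshold in the fit of 6 tumours; 23 had an unadjusted p under 0.05. With the spread estimated from all tumours of 22 models, 3.08% of 23207 genes differed in 2225, 1.68% higher and 1.4% lower. In that fit 18 of the 24 were lower with trametinib, and 11 were without trametinib tumour 1 (background 0.197% lower and 0.0597% higher). Without erlotinib tumour 3 the count was 10. In bulk tumours, less RNA per cell and fewer cells that express a gene cannot be told apart.

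Egln3, the oxygen sensor whose transcript is itself induced by HIF, stood at 2.18, 4.19 and 5.16 CPM with trametinib. With erlotinib it stood at 33.1, 79.2 and 83.7 CPM, which is 16.4 times as much by the fitted fold (log2 fold change -4.03, SE 0.441, adjusted p = 0.0513). The lowest erlotinib tumour lay above the highest trametinib tumour. Vegfa, the main growth factor of blood vessels, was at 51.7, 86.2 and 72.4 CPM with trametinib and at 270, 785 and 645 CPM with erlotinib. The erlotinib arm was 8.07 times as high by the fitted fold (log2 fold change -3.01, SE 0.405, adjusted p = 0.143), and the arms did not overlap. Bnip3, a mitochondrial protein that marks mitochondria for removal, was at 33.7, 27.0 and 25.7 CPM with trametinib and 80.6, 195 and 217 CPM with erlotinib. Its log2 fold change was -2.52 (SE 0.361, adjusted p = 0.169).

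Car9, a surface carbonic anhydrase that handles acid, had 9, 15 and 16 estimated counts with trametinib and 108, 556 and 322 with erlotinib. Among glucose handling genes, the transporter Slc2a1 was at 53, 50.7 and 51.2 CPM with trametinib and 83.7, 189 and 278 CPM with erlotinib. Hexokinase Hk2, the first enzyme of glycolysis, was at 45.9, 52.7 and 53.3 CPM against 67.4, 150 and 315 CPM. The trametinib tumours lay close together in both genes, while the erlotinib tumours spread over more than 3 times their lowest value. Pfkfb3, which makes the activator of phosphofructokinase, was at 9.88, 13.7 and 14.5 CPM with trametinib and 35.3, 79.7 and 100 CPM with erlotinib. The lactate exporter Slc16a3 was at 13.0, 6.05 and 14.8 CPM with trametinib and 40.0, 87.4 and 109 CPM with erlotinib. The differences were smaller in the abundant enzymes of lower glycolysis: the log2 fold change was -0.55 for the enolase Eno1, -0.60 for Gapdh and -0.62 for the lactate dehydrogenase Ldha. Erlotinib tumour 1 had the lowest level of its arm in all genes of this list named with values here.

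**Figure D2:**
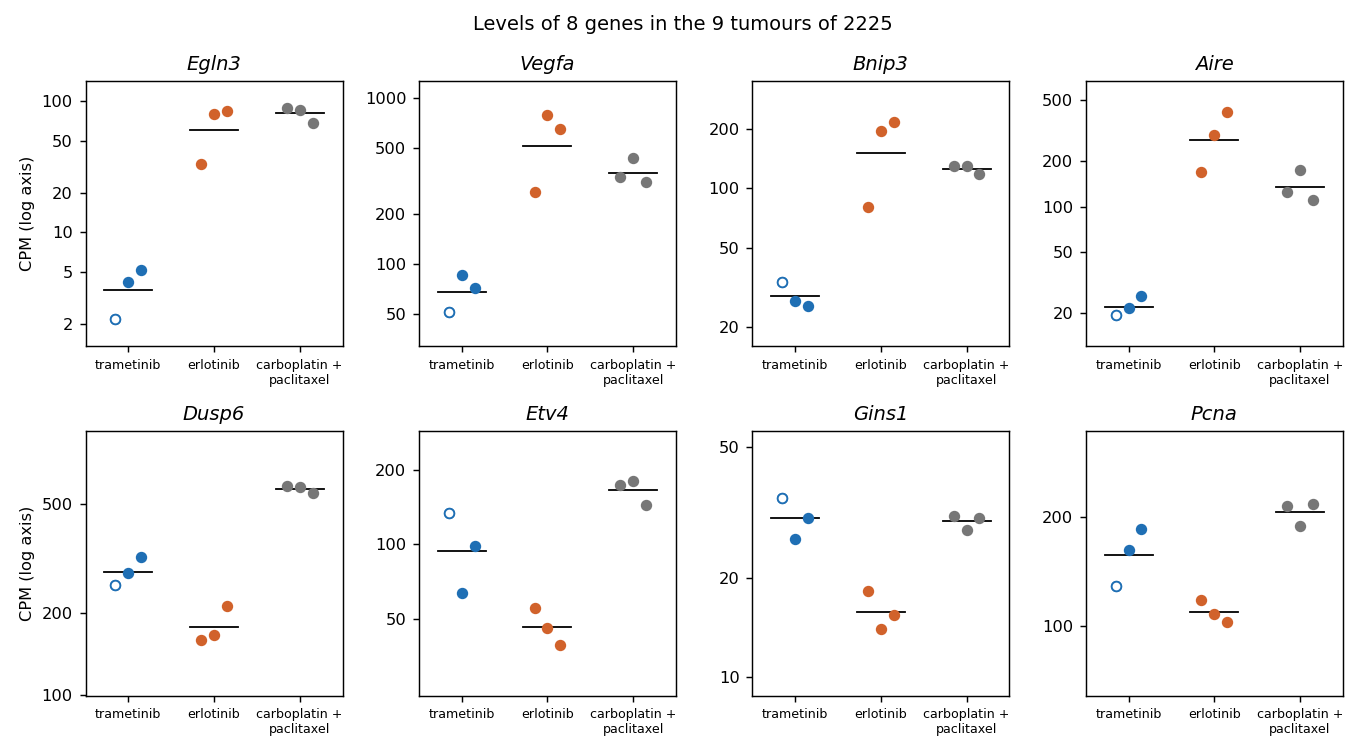
Levels of 8 genes (y axis, CPM, log axis) in the 3 trametinib, 3 erlotinib and 3 carboplatin plus paclitaxel tumours of 2225, with lines at the geometric means; the open circle is trametinib tumour 1. Egln3, Vegfa, Bnip3 and Aire are lower in all trametinib tumours than in the other 6, and Dusp6, Etv4, Gins1 and Pcna are higher with trametinib than with erlotinib. The CPM of the carboplatin plus paclitaxel tumours come from a fit of all 9 tumours, the rest from the fit of 6.

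The tumours given carboplatin plus paclitaxel had levels of this list like those of the erlotinib arm. The mean log2 CPM over the 24 genes was 6.05 to 6.27 in the trametinib tumours, 7.05 to 8.17 in the erlotinib tumours and 7.81 to 7.96 in the tumours given carboplatin plus paclitaxel. Egln3 was at 88.8, 86.1 and 68.6 CPM in the latter. In 23 of the 24 genes all 3 trametinib tumours lay below all 6 other tumours of 2225, compared with 5.08% of all genes tested. Each arm has its own run of library numbers. Nothing in the labels ties these numbers to a date or batch, so a batch and the treatment cannot be told apart. No test was made against the carboplatin plus paclitaxel arm, whose CPM were scaled in a fit of all 9 tumours. The CPM of the trametinib and erlotinib tumours come from the fit of 6.

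The trametinib minus erlotinib difference in 2225 was also tested against the mean of the same difference over the other 21 models. The p-values of this test measure the spread between tumours of a group, not the spread between models. A small p therefore does not set 2225 apart from every other model. Of 23207 genes, 1389 (5.99%) differed by this test, 2.69% higher and 3.3% lower in 2225. Without trametinib tumour 1 the counts were 228 and 204, without erlotinib tumour 2 they were 281 and 454, and without erlotinib tumour 3 they were 288 and 411. In the list of glycolysis and hypoxia, 23 of 24 were lower in 2225 than in the other models, and between 19 and 23 were with any 1 of the 6 tumours left out. Without trametinib tumour 1, where the count was 19, the background among genes tested in the 6 tumours was 1.15% lower and 1.3% higher. In the other 21 models, 21 of the 24 genes were higher with trametinib, with a median log2 fold change of 0.32 (background 15% of genes higher). The list's median per model ranged from -0.47 in 2153 to 1.08 in T11; it was above 0 in 17 of these 21 models and -1.40 in 2225 on the same scale.

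For Egln3 the difference of differences was -4.56 (SE 0.426, adjusted p = 1.93e-13; 3.55e-09 without trametinib tumour 1). Its log2 difference per model lay between -0.82 and 2.89 in the other models and was above 0 in 16 of 21. For Vegfa it was -3.40 (SE 0.427, adjusted p = 1.57e-08, and 2.17e-05 without that tumour). For Bnip3 it was -3.29 (SE 0.414, adjusted p = 1.57e-08, and 4.83e-06), and for Pfkfb3 it was -2.95 (SE 0.358, adjusted p = 6.65e-09, and 8.49e-06). All 4 were the lowest of 22 models in 2225. Genes outside the list, chosen after their values were seen, had the same pattern. P4ha2, a collagen prolyl hydroxylase, was 3.09 lower on the log2 scale than in the other models (adjusted p = 1.97e-06; 0.00027 without trametinib tumour 1). The HIF hydroxylase Egln1 was 1.41 lower (adjusted p = 3.48e-07; 0.000282). Ndufa4l2, a mitochondrial protein known as a HIF target, was 3.87 lower (adjusted p = 4.2e-06; 0.000216). Aire was also the lowest in 2225, at -4.95 against the other models (SE 0.619, adjusted p = 1.57e-08; 9.13e-06 without trametinib tumour 1), where it rose with a log2 fold change of 0.80 (adjusted p = 0.000597).

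**Figure D3:**
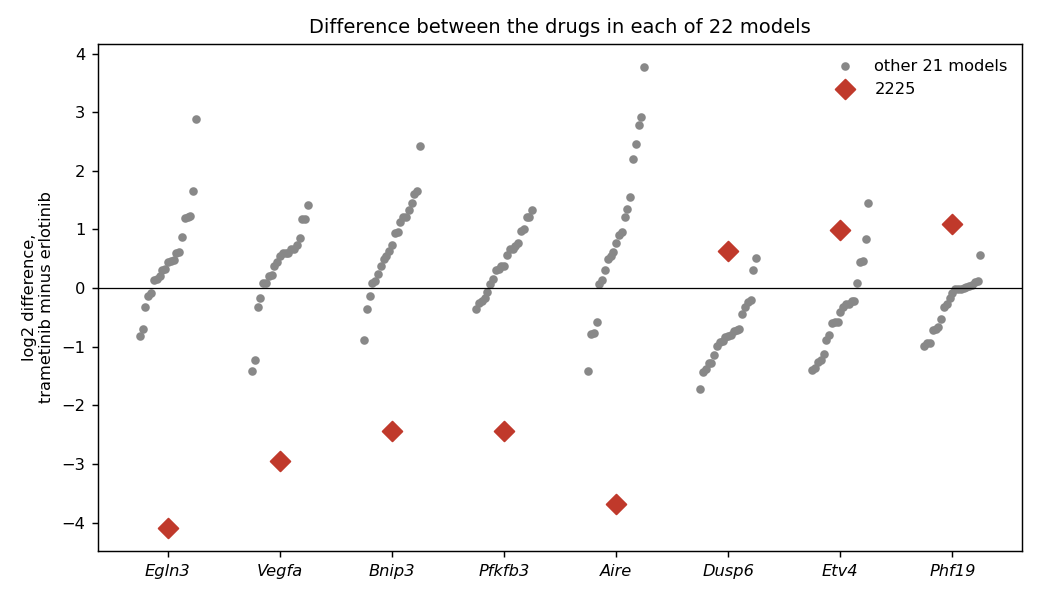
Trametinib minus erlotinib difference (y axis, log2 CPM) of 8 genes (x axis) in each of 22 models; grey points are the other 21 models and the red diamond is 2225. For Egln3, Vegfa, Bnip3, Pfkfb3 and Aire the diamond lies below all grey points, for Dusp6 and Phf19 above them, and for Etv4 it is second from the top.

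The 250 bases upstream of each start were searched for the core that HIF recognises, ACGTG or GCGTG, on both strands. This motif was added after the values were seen. At least 1 core was found in 21 of the 23 list genes with a RefSeq promoter (91.3%), compared with 41.5% of all 27025 genes in the RefSeq table and 59.5% of the genes tested in 2225 that it holds. The list was drawn up as targets of this response, so its high share is a description of the list. Of the genes lower in 2225 than in the other models both with and without trametinib tumour 1, 92 of 134 (68.7%) held a core. Of those higher, 68 of 149 (45.6%) did. The lower of these groups includes genes of the list, so its share is not independent of how the list was drawn up. The letters TGANTCA, recognised by AP-1, were found in 6.72% and 3.36% of these groups, compared with 5.83% of the genes tested in 2225 and 7.82% of all genes. The Ets letters CCGGAAGT were found in 0 of 134 and in 4.03%, compared with 6.26% of the genes tested. A match shows only that the letters are present. The 3 promoters below belong to the list genes with the smallest p for the difference between models among those with a single RefSeq promoter and a core; they are from RefSeq (GRCm38.p6), written 5′ to 3′ up to the base before the start, with the core in capitals on either strand. Egln3 lies on the minus strand at chr12:54203875-54204124, Car9 on the plus strand at chr4:43506776-43507025, and Bnip3 on the minus strand at chr7:138909507-138909756.
Egln3 promoter: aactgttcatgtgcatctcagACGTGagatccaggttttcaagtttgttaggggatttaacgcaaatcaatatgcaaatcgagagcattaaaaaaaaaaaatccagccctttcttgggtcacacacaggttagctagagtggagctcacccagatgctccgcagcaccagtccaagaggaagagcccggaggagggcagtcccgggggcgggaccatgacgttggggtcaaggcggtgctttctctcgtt
Car9 promoter: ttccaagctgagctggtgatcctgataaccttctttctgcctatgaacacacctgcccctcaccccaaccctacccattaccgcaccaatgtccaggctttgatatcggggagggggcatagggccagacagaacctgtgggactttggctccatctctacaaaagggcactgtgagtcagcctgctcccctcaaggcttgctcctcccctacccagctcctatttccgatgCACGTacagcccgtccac
Bnip3 promoter: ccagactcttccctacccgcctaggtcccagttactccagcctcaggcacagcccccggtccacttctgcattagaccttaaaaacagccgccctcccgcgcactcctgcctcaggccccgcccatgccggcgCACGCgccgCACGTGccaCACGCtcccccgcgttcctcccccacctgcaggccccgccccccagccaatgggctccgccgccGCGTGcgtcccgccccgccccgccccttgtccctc
Egln3 and Car9 held 1 core each, and Bnip3 held 5, of which 2 overlap as a palindrome.

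The output genes of ERK did not move as 1 group. Dusp6, the phosphatase that switches off ERK and a common readout of the chain (chromosome 10, 99263231 to 99267489, mm10), stood at 252, 279 and 320 CPM with trametinib and 159, 166 and 212 CPM with erlotinib. Every trametinib tumour was above every erlotinib tumour, but the difference did not pass the adjusted threshold (log2 fold change 0.66, SE 0.176, adjusted p = 0.298). It was 580, 579 and 547 CPM in the tumours given carboplatin plus paclitaxel. In the other models Dusp6 fell with trametinib (log2 fold change -0.77, adjusted p = 9.65e-15) and was lower in 19 of 21. It was higher in 9263 (log2 difference 0.52) and MMTV-Neu (0.30), and the value of 2225 on this scale was 0.63, the highest of 22 models. The difference in 2225 was 1.39 higher than the mean of the other models (SE 0.257, adjusted p = 0.000157, and 0.000428 without trametinib tumour 1).

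Etv4, an Ets factor induced by ERK, was at 134, 63.6 and 98.2 CPM with trametinib and 55.2, 45.8 and 38.9 CPM with erlotinib. The arms did not overlap (log2 fold change 1.08, adjusted p = 0.286). It was 1.40 higher than in the other models (adjusted p = 0.00576), but did not pass the threshold without trametinib tumour 1 (0.0748) or erlotinib tumour 3 (0.0516). Etv4 had a log2 difference of 0.99 in 2225, 1.45 in MMTV-Neu and 0.84 in KPB1-B, and was lower with trametinib in 16 of the other 21 models. Its relative Etv5 was at 122, 120 and 182 CPM against 93.0, 101 and 147 CPM, with overlapping arms. Spry2 and Spry4, brakes on receptor signalling, had log2 fold changes of -0.02 and 0.23, and the early gene Egr1 had 0.10. Spry2 was at 0.17 and Egr1 at 0.33 without trametinib tumour 1, and none of the 3 passed the adjusted threshold in 2225. Phlda1 had 0.01 and the cyclin Ccnd1 0.35.

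Of the 6 tested Fos and Jun genes of the list of ERK-induced transcription factors, Fosl2 was the 1 that differed from the other models. Fos, the immediate early AP-1 subunit, was at 4.06, 11 and 9.23 CPM with trametinib and 15.2, 25.4 and 39.4 CPM with erlotinib. The related subunit Fosl2 was at 33.7, 45.8 and 50.8 CPM against 65.4, 77.8 and 108 CPM. Fosl1 was low throughout, with 1, 6 and 11 estimated counts against 48, 39 and 54 (log2 fold change -2.54, adjusted p = 0.245). In each of the 3 the arms did not overlap, nor did they in Fosb and Jun, which had log2 fold changes of -1.84 and -0.53; in Junb they overlapped (-0.23). Fosl2 differed from the other models by -1.22 (adjusted p = 0.000691; 0.0285 without trametinib tumour 1). Genes of stress during tissue handling were measured beside them. Of 10 such genes, which include Fos and Jun, 5 were lower in every trametinib tumour (background 11.5%), among them the heat shock genes Hspa1a (log2 fold change -1.45) and Hspa1b (-1.41). Their part in the values of Fos and Jun genes was not tested.

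Over the list of ERK feedback genes, 5 of 15 had a positive log2 fold change, with a median of -0.22 (-0.04 without trametinib tumour 1). In 2 the arms did not overlap upward, compared with 11.3% of all genes, and in 2 downward. Over the 18 transcription factors the median was -0.68 (-0.52 without that tumour), with 8 lower and 1 higher without overlap (background 11.5% and 11.3%). None of these was called in the 6 tumours. Against the other models, Dusp6 was higher and Spred3 lower in the first list, and Etv4 and Myc higher and Fosl2 and Klf10 lower in the second. Spred3, Etv4 and Klf10 were not called without trametinib tumour 1. Myc, the growth regulator, was also not called without erlotinib tumour 1, erlotinib tumour 2 or trametinib tumour 3 (adjusted p up to 0.332). In the other models 9 of 15 and 10 of 18 fell with trametinib (background 13.9%). For the feedback list the median per model was -0.29 in 2225, and the median of the other models was -0.30. For the transcription factors these values were -0.76 and -0.32.

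Egfr, the target of erlotinib, was at 19.8, 24.3 and 27.5 CPM with trametinib and 27.0, 25.2 and 31.1 CPM with erlotinib (log2 fold change -0.21, adjusted p = 0.599). In the other models it rose with trametinib (0.53, adjusted p = 5.68e-07). The difference between 2225 and these models was -0.81 (adjusted p = 0.0319). Without any 1 of trametinib tumours 1 and 2 or of the erlotinib tumours it was not called (adjusted p up to 0.247). The EGFR ligands Areg and Ereg reached at most 9 and 27 estimated counts and were not tested. Erbb2, a partner of Egfr, had a log2 fold change of -0.01.

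Genes of DNA replication were higher with trametinib in 2225 in sign, with smaller differences than the hypoxia list. All 25 had a positive log2 fold change, with a median of 0.46 (0.52 without trametinib tumour 1), and in 13 the arms did not overlap upward, compared with 11.3% of all genes tested. None was called in the 6 tumours. Gins1, a subunit of the replicative helicase, was at 35.0, 26.2 and 30.4 CPM with trametinib and 18.2, 14.0 and 15.4 CPM with erlotinib (log2 fold change 0.94, adjusted p = 0.215). The sliding clamp Pcna was at 129, 162 and 186 CPM against 118, 108 and 102 CPM. In the tumours given carboplatin plus paclitaxel, Pcna was at 189 to 218 CPM, scaled in the fit of 9 tumours. The lowest of these lay close to the 186 CPM of trametinib tumour 3, which comes from the fit of 6.

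Against the other models, 16 of the 25 replication genes were higher in 2225 (background 2.69%), and 13 were without trametinib tumour 1 (background 1.3%). The count was 8 without erlotinib tumour 1, where 549 of all 23261 genes were higher. It was 5 without erlotinib tumour 2 (281 of 23263 genes higher) or trametinib tumour 3 (596 of 23267). In the other models 23 of the 25 fell with trametinib (background 13.9%). The median of the replication list per model was 0.42 in 2225 and was higher, at 0.76, in MMTV-Neu. For Pcna the difference was 0.85 (SE 0.205, adjusted p = 0.0052; 0.00297 without trametinib tumour 1), and for Gins1 it was 1.24 (adjusted p = 0.00468; 0.0266). Pola1, the catalytic subunit of DNA polymerase alpha, was at 129 CPM in trametinib tumour 1 and at 39.3 and 41.7 CPM in the others of its arm; its log2 fold change was 1.54, and 0.76 without that tumour. Genes of mitosis had a median log2 fold change of 0.27, with 23 of 26 positive. None was called against the other 21 models, and 1 was without trametinib tumour 2 or without trametinib tumour 3. Against the models with adjacent library numbers alone 17 of 26 were higher, where 1284 of 19622 genes were higher and 1784 lower. These models are a part of the 21 and include T11, whose library numbers follow those of 2225. T11 had the highest same-sign share (91.5%) and the highest glycolysis and hypoxia median (1.08) of all models. How far the choice of models shapes these counts was not tested. Mki67, a marker of dividing cells, was at 574, 316 and 335 CPM against 244, 266 and 497 CPM, with overlapping arms; its log2 fold change was 0.28, and -0.04 without trametinib tumour 1. The CDK inhibitor Cdkn1a was at 8.64, 12.7 and 12.6 CPM with trametinib and 19.7, 35.2 and 48.2 CPM with erlotinib. It was 1.72 lower than in the other models (adjusted p = 0.00894), and not called without trametinib tumour 1 (0.0897).

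**Figure D4:**
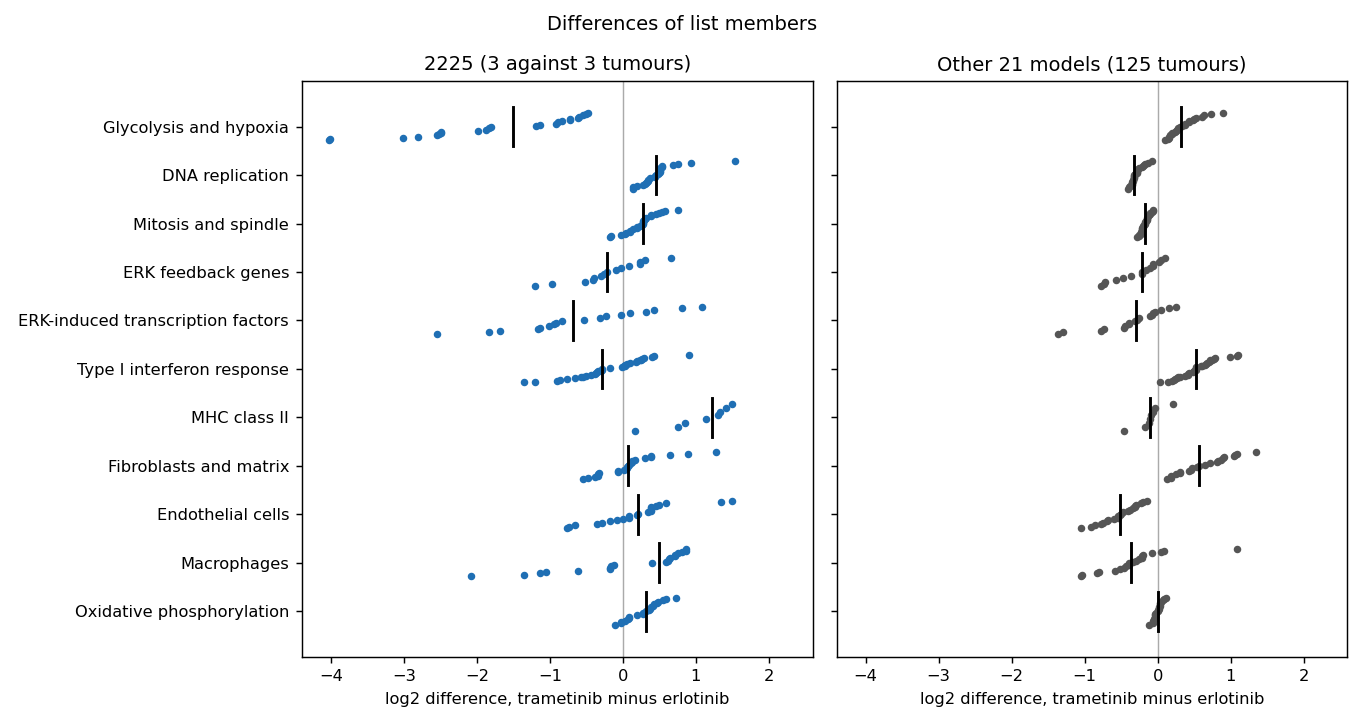
Log2 fold changes (x axis, trametinib minus erlotinib) of members of 11 gene lists (y axis), in 2225 (left) and in the other 21 models (right). Each point is a gene and each bar the median of its list; the glycolysis and hypoxia genes lie below 0 on the left, with a median of -1.50, and above 0 on the right, with a median of 0.32.

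Genes of other cells in the tumours were compared next. Type I interferon genes, 30 of 33 of which rose with trametinib in the other models (background 15.0%), had a median of -0.28 in 2225 (-0.13 without trametinib tumour 1), and 14 of 33 were positive. Ifit1, an interferon-induced RNA binding protein, was at 0.312, 0.706 and 1.47 CPM against 1.67, 1.44 and 1.02 CPM. Against the other models, Isg20, Zbp1, Xaf1 and Ddx58 were lower (background 3.3%), and of these only Isg20 was called without trametinib tumour 1 (adjusted p = 0.00408). Without erlotinib tumour 2 the list also had 1 gene lower (454 of 23263 over all genes). Against the models with adjacent library numbers 15 of 33 were lower, as were 1784 of all 19622 genes tested. The median of the interferon list per model was -0.31 in 2225 and was lowest, at -0.32, in MMTV-Neu. The checkpoint ligand Cd274 was at 0.520, 1.11 and 1.47 CPM against 2.08, 2.03 and 2.91 CPM (adjusted p = 0.351).

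MHC class II genes, which present antigen on macrophages, dendritic cells and B cells, were higher with trametinib in sign. All 8 tested were positive, with a median of 1.22 (1.30 without trametinib tumour 1), and in 6 the trametinib tumours lay above all 6 other tumours of 2225 (background 4.87%). The invariant chain Cd74 was at 212, 319 and 251 CPM with trametinib and 173, 103 and 35.6 CPM with erlotinib (log2 fold change 1.33, adjusted p = 0.345). H2-DMa was the list's 1 gene called against the other models (adjusted p = 0.0308), and it was not called without trametinib tumour 1 (0.167). It was not called without erlotinib tumour 2 or 3 either, and 3 genes of the list were called without erlotinib tumour 1 (549 of 23261 genes higher). Among macrophage genes, the receptor Csf1r was at 33.6, 51.7 and 64.2 CPM with trametinib and 37.6, 24.6 and 19.9 CPM with erlotinib. Its difference was 1.40 higher than in the other models (adjusted p = 0.00291; 0.00191 without trametinib tumour 1), and Lyz2 and Mrc1 were higher as well both with and without that tumour. Of the 20 macrophage genes tested in 2225, 11 were positive and 9 negative, with 6 higher and 4 lower without overlap (background 11.3% and 11.5%). The list had 4 of 21 genes higher (background 2.69%) and 1 lower, Nos2, in 2225 than in the other models. The count of higher genes was 6 without erlotinib tumour 1 (549 of 23261 over all genes). It was 2 without erlotinib tumour 2 (281 of 23263), erlotinib tumour 3 (288 of 23260) or trametinib tumour 3 (596 of 23267). Arg1, a macrophage arginase, had values in the other direction, at 2.81, 6.46 and 4.31 CPM against 20.2, 24.5 and 13.5 CPM (log2 fold change -2.08, adjusted p = 0.188).

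Endothelial genes had a median of 0.21 in 2225 (0.32 without trametinib tumour 1) and of -0.51 in the other models, where 18 of 22 fell with trametinib (background 13.9%). In 2225, 15 were positive and 7 negative, and the arms did not overlap in 3 upward and 3 downward (background 11.3% and 11.5%). Against the other models 5 of 22 were higher in 2225 with all tumours (Cdh5, Clec14a, Dll4, Emcn and Tek; background 2.69%). Without trametinib tumour 1 there were also 5 (background 1.3%), with Mmrn2 in place of Dll4. There were 3 without erlotinib tumour 2 (281 of 23263 over all genes) or trametinib tumour 3 (596 of 23267). There were 2 without erlotinib tumour 3 (288 of 23260). Tek, the angiopoietin receptor, was at 3.95, 3.88 and 6.31 CPM with trametinib and 1.73, 1.44 and 1.85 CPM with erlotinib; its difference was 2.0 higher than in the other models (adjusted p = 0.0008; 0.00181 without trametinib tumour 1). Pecam1, a junction protein of endothelial cells, was at 31.2, 37.4 and 62.1 CPM against 43.1, 27.4 and 30.3 CPM. The median of the endothelial list per model was 0.14 in 2225 and was highest, at 1.13, in 2153. Fibroblast and matrix genes had a median of 0.07 (0.20 without trametinib tumour 1), and 17 of 23 rose in the other models (background 15.0%). Against all other models 1 of 23 was lower in 2225 (background 3.3%). Against those with adjacent library numbers 8 were, where 1784 of all 19622 genes tested were lower. In the endothelial list the latter comparison had 11 of 22 higher, where 1284 of the 19622 genes were higher. Col1a1, a fibre-forming collagen, was at 1470, 1470 and 3150 CPM with trametinib and 2040, 1720 and 1950 CPM with erlotinib.

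Genes of skin and skeletal muscle also differed among the tumours. The 8 tested genes of skin and hair keratinocytes had negative log2 fold changes, with a median of -3.99 (-4.30 without trametinib tumour 1), and were highest in erlotinib tumour 1. Krt1, a keratin of the upper epidermis, was at 53.3 CPM in erlotinib tumour 1, 4.41 and 0.971 CPM in the other erlotinib tumours and 0.842 to 0.936 CPM with trametinib. The mean log2 CPM of this list was 5.53 in erlotinib tumour 1 and 0.31 to 2.08 in the other 5 tumours. The list of basal and squamous genes was also highest in erlotinib tumour 1, at 5.88, with 5.09 and 5.33 in erlotinib tumours 2 and 3. Whether the skin genes come from neighbouring skin or from the tumour cells was not tested. Skeletal muscle genes were lowest in trametinib tumour 1, at a mean log2 CPM of 0.38, and at 1.86 to 4.03 in the other 5. The 4.03 was in erlotinib tumour 1, which also had the highest level of the 6 tumours for the adipocyte (2.71) and neutrophil (2.98) lists. The glycolysis and hypoxia list was lowest of its arm in erlotinib tumour 1, where the skin list was highest, and the part of neighbouring tissue in the other results was not tested.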

How the data were processed

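Poly(A) RNA of frozen mouse mammary tumours was sequenced from TruSeq libraries, per the labels. The submitters' processing notes name Salmon, STAR, Picard and SAMtools and the build mm10; no version, setting or strandedness is stated there. The authors deposited Salmon's estimated counts for 55291 gene symbols, of which 8.45% of the values used were not whole. The authors also deposited a normalized signal, in which each estimated count is divided by its library's upper quartile; it served for 1 alternative. Of the table of estimated counts, 175 columns were not used.

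Estimated counts were rounded, filtered with filterByExpr and scaled with edgeR's TMM factors. CPM are counts per 1000000 of the TMM-scaled library size, and log2 values carry a prior count of 2. CPM of the carboplatin plus paclitaxel tumours come from a fit of all 9 tumours of 2225, the others from the fit of 6. edgeR 4.0.16 (limma 3.58.1, R 4.3.3) gave quasi-likelihood tests with Benjamini-Hochberg adjustment over all tested genes, and the SE of a log2 fold change is its size over the root of its F statistic; genes were called at an adjusted p under 0.05. DESeq2 1.42.0 was an alternative. The fit of 22 models held 1 coefficient for each model and treatment, and gave the differences between 2225 and the mean of the other 21 models. The log2 fold changes and p-values of the other 21 models themselves came from a separate fit. It gave 1 log2 fold change per gene, shared by these models. The tests were tried on simulated data. No duplicate libraries were found: tumours correlated at 0.935 to 0.981 within an arm and at 0.922 to 0.979 between the arms (Pearson r over genes). Positions are from GENCODE M21 on mm10, in which 53292 symbols were found. Reads may be shared between copies or pseudogenes for Gapdh, Pgk1, Eno1 and the H2 genes, and without stated strandedness reads of overlapping antisense genes cannot be told apart.

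Depth was 12074712 to 32044321 estimated counts per tumour, so counting error matters mainly for genes with few counts. Alternatives were other scaling, filters, tests, the normalized signal, other sets of tumours and leaving out each tumour. Named genes were the called genes with the 10 largest rises and falls (mean log2 CPM of at least 2, arms not overlapping), the 2 called members of each list with the smallest p, the 5 called genes with the smallest p for the difference between models, and 22 set genes. Members, lists and named genes were chosen with earlier results of these data known. Other genes named in the text were picked from the lists, or outside them, after their values were seen.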

Additional observations from a re-analysis of the deposited data

Results flagged for a closer look

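For 8 of the named genes the trametinib minus erlotinib difference in 2225 differed from its mean over the other 21 models by a test of that difference (edgeR, adjusted p under 0.05). On the log2 scale, it was lower in 2225 by -4.95 for Aire, -4.56 for Egln3, -3.40 for Vegfa, -3.29 for Bnip3, -2.95 for Pfkfb3 and -0.81 for Egfr. It was higher by 1.39 for Dusp6 and 1.40 for Etv4. Egfr was called in 1 and Etv4 in 4 of the 6 fits that left out 1 tumour of 2225, and the other 6 genes in all of these fits.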

How the results depend on the processing

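The 3 genes called in 2225 became 7 with upper quartile factors, 25 with no filter, 5 with a stricter filter, 340 with DESeq2's test, 8 with limma on the authors' normalized signal, 54 in 9 tumours of 3 arms and 715 in the 22-model fit, and 0 to 23 with 1 tumour left out. Alternatives chosen after seeing the data gave 78 with quality weights, and, without trametinib tumour 1, 9 in the 9-tumour and 48 in the 22-model fit. The 1389 genes that differed from the other models became 3068 against models with adjacent library numbers, and 432 to 1617 with 1 tumour left out. The 4853 genes of the other models became 2296 to 3427 with 1 replicate of each arm left out. The cause was not tested.

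Values near 0 changed sign. With 1 tumour left out, Spry2 ranged from -0.17 to 0.17, Egr1 from -0.22 to 0.33, Phlda1 from -0.09 to 0.14, Mki67 from -0.04 to 0.67, Col1a1 from -0.38 to 0.29 and Vim from -0.47 to 0.03. Spry2 was 0.06 with voom, 0.28 with quality weights, 0.17 without trametinib tumour 1 or erlotinib tumour 3, and 0.18 and 0.15 in the 9-tumour and 22-model fits without trametinib tumour 1. Egr1 was -0.07 with the authors' signal and -0.22 without trametinib tumour 3. Phlda1 was -0.01 with voom, -0.10 with the authors' signal, -0.03 in the 22-model fit, and -0.09 to -0.03 without trametinib tumour 2, erlotinib tumour 2 (-0.08) or trametinib tumour 3. Without trametinib tumour 1, in the 6-tumour, 9-tumour and 22-model fits, Mki67 was -0.04, -0.03 and -0.05, Vim 0.03, 0.04 and 0.01, and Hmgcs1 -0.08, -0.07 and -0.10. Hmgcs1 was also -0.07 with the authors' signal, -0.02 with quality weights and -0.00 in the 22-model fit. Col1a1 was -0.01 with voom, -0.10 with the authors' signal, -0.03 with quality weights and -0.38 without trametinib tumour 3. No paired analysis was possible because the titles carry no replicate numbers. The 3 tumours of an arm and the shallow trametinib tumour 1 limit these results.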

Other observations

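Genes outside the lists above also differed between 2225 and the other models; Phf19, Tubb5, Me1 and Gzma were picked after their values were seen. Phf19, a subunit of the Polycomb complex that methylates histone H3, was at 16.1, 15.7 and 21.0 CPM with trametinib and 8.55, 8.32 and 6.93 CPM with erlotinib. Its difference was 1.37 higher than in the other models (SE 0.208, adjusted p = 3.72e-06, edgeR; 9.03e-06 without trametinib tumour 1). The tubulin gene Tubb5 was at 1540, 1270 and 1510 CPM against 913, 895 and 770 CPM, 0.83 higher than in the other models (adjusted p = 8.38e-05; 0.000576 without that tumour). Me1, the malic enzyme that makes NADPH, was at 22.7, 24.9 and 28.2 CPM against 60.7, 117 and 146 CPM, 2.5 lower than in the other models (adjusted p = 2.46e-06; 0.000382). None of these genes was called in the 6 tumours alone (adjusted p = 0.189 for Phf19, 0.245 for Tubb5 and 0.188 for Me1).

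Gzma, a granule protease of cytotoxic lymphocytes, had 36, 59 and 61 estimated counts with trametinib and 8, 15 and 3 with erlotinib. The arms did not overlap (log2 fold change 3.33, SE 0.525, adjusted p = 0.188), and the difference was 3.55 higher than in the other models (adjusted p = 0.00103; 0.00692 without trametinib tumour 1). Only 4 of the 16 genes of the cytotoxic list had enough counts to be tested in 2225. Nuclear-encoded genes of oxidative phosphorylation were positive in 18 of 21, with a median log2 fold change of 0.32, and none was called against the other models. Hmgcs1, a cholesterol synthesis enzyme, and Vim, a mesenchymal filament, had log2 fold changes of 0.05 and -0.18, with overlapping arms.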
